A study of Mus musculus with 3 samples.

Results

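The enzymes and carriers that carry fatty acids into mitochondria and oxidise them there were read in mouse liver after 3 diets. The 10 genes were taken by name: Cpt1a, Slc25a20 and Cpt2 of the carnitine shuttle, the acyl-CoA dehydrogenase genes Acadvl, Acadl and Acadm, the trifunctional protein genes Hadha and Hadhb, and Echs1 and Hadh. Every probe set whose platform annotation names only one of them was used, which gave 19 of the 45101 probe sets on the array, and all 10 genes were found. They are 10 of 18193 genes that the array names in this way, and 10 of the 11341 that passed the filter on dim probe sets given below.

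Male C57BL/6J mice were fed from 6 weeks of age for 15 weeks with a high-fat diet (D12492, 60% of energy from fat) that also held 0.023% (w/w) of the iron compound sodium ferrous citrate (HF+SFC), with the high-fat diet alone (HF), or with a control diet (D12450B, 10% of energy from fat; Control). The sample labels give an age of 21 months, which does not match these feeding times, and age was not used. The material of all mice of a group was mixed and read on 1 Affymetrix whole-genome mouse array, so that the series holds 3 arrays of liver RNA and 1 per group. On these arrays no difference between groups has a replicate check, no test could be made, and p-values are left out. The study also measured liver RNA by qRT-PCR in several mice per group. It reported Cpt1a, Hadh, Acadvl, Acadl, Echs1, Acsl3 and Mlycd as significantly higher in HF+SFC than in HF. It also reported β-oxidation genes as lower in HF than in Control. Those measurements were not re-analysed here.

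A long-chain fatty acid is activated to acyl-CoA, which cannot pass the inner mitochondrial membrane. CPT1A on the outer membrane moves the acyl group onto carnitine, the carrier SLC25A20 exchanges acylcarnitine for free carnitine, and CPT2 on the inside gives acyl-CoA back. The chain is then shortened in repeated rounds of dehydrogenation, hydration, a further dehydrogenation and thiolysis. Long chains are handled by ACADVL and the membrane-bound trifunctional protein, shorter ones by ACADM, ECHS1 and HADH. In liver the pathway supplies energy and acetyl-CoA for ketone bodies during fasting, and many of its genes are targets of the nuclear receptor PPARα, which binds direct repeats of a half-site as a partner of RXR.

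Promoters of the 10 genes were found in RefSeq (GRCm38.p6), and the 250 bases before each start were searched on both strands. Hadha and Hadhb, which encode the subunits of one complex, lie head to head on chromosome 5, with 272 bases between their annotated starts, and 228 bases are common to both windows. The stretches shown belong to the pair with the lowest ratios of HF over Control by the probe set used, Cpt2 and Slc25a20, to the pair with the highest ratios of HF+SFC over HF, Cpt1a and Echs1, and to the region shared by Hadha and Hadhb. Capitals mark GGGCGG (the GC box) in all of them, CGGAAG (the ETS core) in Cpt2 and Slc25a20, and AGGTCA (the nuclear receptor half-site) in Cpt1a and Echs1, each on either strand. Echs1 also holds CGGAAG on the opposite strand, left in lower case here. The pairs were chosen by their ratios, and whether a motif goes with a ratio was not tested.
Cpt2 (chr4:107923590-107923839, minus strand): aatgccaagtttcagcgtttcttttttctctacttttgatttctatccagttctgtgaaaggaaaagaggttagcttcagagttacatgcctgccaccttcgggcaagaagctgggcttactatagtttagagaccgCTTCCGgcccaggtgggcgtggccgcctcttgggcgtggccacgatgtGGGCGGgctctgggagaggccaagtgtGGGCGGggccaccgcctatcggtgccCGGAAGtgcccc
Slc25a20 (chr9:108661886-108662135, plus strand): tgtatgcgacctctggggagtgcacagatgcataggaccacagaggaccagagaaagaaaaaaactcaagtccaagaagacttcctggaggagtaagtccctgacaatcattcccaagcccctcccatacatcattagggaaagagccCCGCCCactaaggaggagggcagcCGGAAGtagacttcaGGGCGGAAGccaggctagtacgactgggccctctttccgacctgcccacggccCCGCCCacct
Cpt1a (chr19:3323051-3323300, plus strand): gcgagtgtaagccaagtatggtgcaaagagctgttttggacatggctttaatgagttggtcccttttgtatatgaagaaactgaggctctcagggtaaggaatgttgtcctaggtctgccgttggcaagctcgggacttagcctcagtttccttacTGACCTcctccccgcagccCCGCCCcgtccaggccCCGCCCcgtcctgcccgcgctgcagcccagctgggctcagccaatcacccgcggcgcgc
Echs1 (chr7:140116422-140116671, minus strand): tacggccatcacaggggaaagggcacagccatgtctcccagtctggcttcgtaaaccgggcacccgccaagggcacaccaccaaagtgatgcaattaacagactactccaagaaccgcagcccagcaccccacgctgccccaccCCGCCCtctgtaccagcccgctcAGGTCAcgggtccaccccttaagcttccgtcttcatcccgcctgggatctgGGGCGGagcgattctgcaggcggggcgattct
Hadha and Hadhb (chr5:30155003-30155230, plus strand): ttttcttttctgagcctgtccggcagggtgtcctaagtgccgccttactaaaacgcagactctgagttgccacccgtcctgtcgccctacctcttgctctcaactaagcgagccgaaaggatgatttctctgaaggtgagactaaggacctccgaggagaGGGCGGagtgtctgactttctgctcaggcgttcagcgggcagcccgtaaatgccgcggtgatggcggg
The GC box was found in 8 of 10 members, all but Acadvl and Acadm, against 32.7% of all 32851 promoter windows. The half-site AGGTCA was found in Cpt1a, Acadvl, Acadm and Echs1, that is, in 4 of 10, against 14.0% of all windows, and in Cpt1a and Echs1 its first base lay 94 and 83 bases before the start. Its direct repeat AGGTCANAGGTCA was found in 0 of 10 members and in 0.0335% of all windows. CGGAAG was found in 3 of 10 members, Slc25a20, Cpt2 and Echs1, against 13.6% of all windows, and it was added to the search after the sequences and ratios had been seen. In Slc25a20 one CGGAAG overlaps a GC box. TATAAA was found in 0 of 10 members and in 12.4% of all windows. The member windows held 56.8% to 68% of G and C, except Acadvl with 49.6%, against a median of 52.4% over all windows. The part of base composition in these shares was not tested. A match describes letters and is not a binding site, and windows of Hadha and Hadhb overlap, so that their matches are not separate. The window of Cpt1a lies inside the span that RefSeq annotates for this gene.

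Signals are MAS5 intensities on a linear scale, scaled by the authors so that the trimmed mean was 500.004 on each array. Where a gene had several probe sets, the one with the highest mean log2 signal over the 3 arrays stood for it (the probe set used), and the gene was kept where this mean lay in the upper 50% of probe sets, at a signal of 76.9 or more. All 10 members were bright: the probe sets used had signals of 4957 or more on every array, and the dimmest of them, of Hadha, stood in the upper 3.42% of probe sets. The error, in place of replicates, was taken from genes with several probe sets, as the SD of their log2 ratios within a gene. Over 5020 genes it was 0.35 for HF over Control, with 0.33 for HF+SFC over HF, but it was 0.13 and 0.11 over the 804 genes with 2 or more probe sets in the upper 10% of signal, where the members lie. This spread comes from the same arrays and can mix noise with differences between the transcripts that the probe sets of a gene match. It holds nothing of the variation between mice, pools or hybridisations, so a ratio beyond it is not shown to be a difference between diets. The ratio of 3′ to 5′ signal of Actb was 1.73 in HF+SFC, 1.65 in HF and 1.84 in Control. That of Gapdh lay between 0.680 and 0.708, and that of Pcx was lowest in HF at 3.23. The part of RNA quality in the ratios below was not tested.

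**Figure D1:**
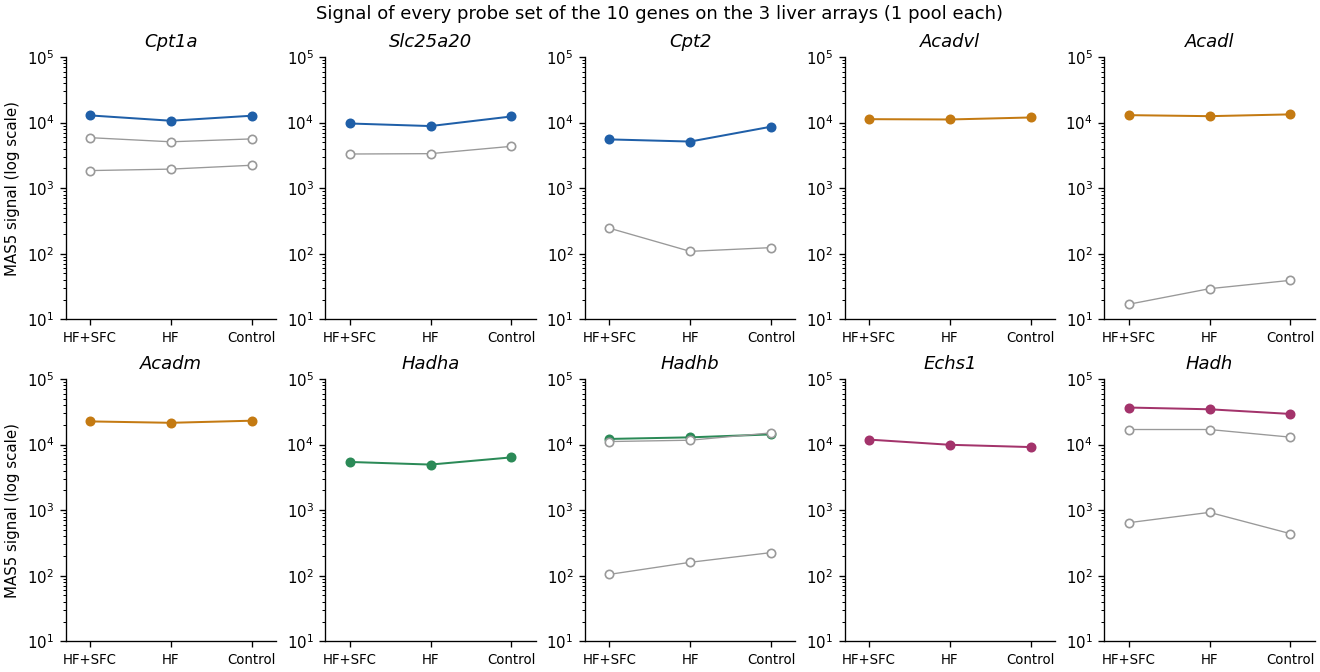
MAS5 signal (y axis, log scale) of every probe set of the 10 genes on the HF+SFC, HF and Control arrays (x axis, 1 pooled array each, no error bars); filled points are the probe set used and open points the others. The used lines are nearly flat on this scale, Cpt2 is lowest in HF at 5138, and 4 open lines lie below 1000.

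HF was compared with Control to see how the pathway stood after the high-fat diet. The carnitine shuttle genes were lower in HF, Echs1 and Hadh higher, and the dehydrogenases close to Control. In HF 1 of 10 members, Cpt2, was at least 1.5-fold lower, the threshold used in the study, and 0 were at least 1.5-fold higher. Of all kept genes, 5.84% were lower and 11.3% higher by that much, and of the 951 kept genes at least as bright as the dimmest member 4.94% and 3.79%, so that the count of members is not apart from the background. The median log2 ratio of the members was -0.13, against 0.03 for all kept genes and -0.07 for the equally bright genes. Members below 0 were 8 of 10, where 46.9% of all kept genes and 62.4% of the equally bright ones were below 0. Under quantile scaling 6 of 10 members and 47.4% of the equally bright genes were below 0. Under lowess it was 8 of 10 and 47.8%, and under median centring 8 of 10 and 75.1%. The median of the equally bright genes was 0.01 under quantile and lowess scaling. In pooled liver, fewer cells of a type and less RNA per cell cannot be told apart.

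Cpt2 encodes the inner carnitine palmitoyltransferase. Its signal was 5541 in HF+SFC, 5138 in HF and 8656 in Control, with both high-fat arrays below Control, and it was 1.68-fold lower in HF than in Control. Of the equally bright genes 2.42% had a log2 ratio as low as this one, -0.75. Cpt2 was the lowest of the members, and this share does not allow for taking an extreme. The other probe set of Cpt2 had signals of 246, 109 and 124 in HF+SFC, HF and Control and stood at -0.19, so that the 1.68-fold difference rests on 1 probe set.

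Slc25a20 encodes the carnitine-acylcarnitine carrier of the inner membrane. Its signal was 9687 in HF+SFC, 8853 in HF and 12400.4 in Control. HF was 1.4-fold lower than Control, and the second probe set, with 3317, 3358 and 4345 in the same order, gave 1.29-fold. Both probe sets thus placed the high-fat arrays below Control, at -0.49 and -0.37 on the log2 scale, and 7.05% of the equally bright genes had a ratio as low as the first.

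Cpt1a, the liver form of the malonyl-CoA-sensitive entry enzyme, is the step at which entry into mitochondria is controlled. Its signal was 12863 in HF+SFC, 10668 in HF and 12723 in Control, lowest in HF. The log2 ratio of HF over Control was -0.25 by this probe set and -0.15 and -0.19 by the others. All 3, read on the same 2 arrays, lay below 0, but 21.2% of the equally bright genes had a ratio as low.

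The acyl-CoA dehydrogenases open each round of oxidation, ACADVL for very long chains, ACADL for long chains and ACADM for chains of medium length. Acadvl had a signal of 11272 in HF+SFC, 11152 in HF and 11966 in Control. Acadl had 12985, 12528 and 13339 in the same order. Acadm had 22566 in HF+SFC, 21481 in HF and 23134 in Control. Their log2 ratios of HF over Control were -0.10, -0.09 and -0.11, all within the spread between bright probe sets, and those of Acadvl and Acadl turned positive under quantile scaling. The 3 genes thus had nearly the same ratio. Acadl has a second probe set that is too dim to read, with signals of 17.0 in HF+SFC, 29.3 in HF and 39.3 in Control, below the kept level.

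The trifunctional protein joins the hydratase and 3-hydroxyacyl-CoA dehydrogenase of its alpha subunit (Hadha) with the thiolase of its beta subunit (Hadhb). Hadha had 1 probe set, with 5435 in HF+SFC, 4957 in HF and 6382 in Control, and HF was 1.29-fold lower than Control. Hadhb had 2 bright probe sets that differed. The one used gave 12196 in HF+SFC, 12891 in HF and 14300 in Control, a log2 ratio of -0.15 for HF over Control, and the other gave 11121 in HF+SFC, 11658 in HF and 15070 in Control, a ratio of -0.37. Hadha stood at -0.36. The suffix of the probe set used marks possible matches to several transcripts, and the ratio without such probe sets was -0.37. One more, dim probe set of Hadhb, with 105, 160 and 225 in HF+SFC, HF and Control, stood at -0.49.

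Echs1, the short-chain enoyl-CoA hydratase, and Hadh, the 3-hydroxyacyl-CoA dehydrogenase for medium and short chains, stood above Control in HF. Hadh had 36718 in HF+SFC, 34532 in HF and 29330 in Control by the probe set used, and 16975, 16971 and 12981 by its other bright probe set. HF was 1.18-fold and 1.31-fold higher than Control by these, and 14.4% of the equally bright genes had a ratio as high as the first. One more probe set of Hadh, with a mean signal of 639, had 644 in HF+SFC, 925 in HF and 438 in Control, 2.11-fold higher in HF than in Control. Echs1 had 11911 in HF+SFC, 9929 in HF and 9164 in Control, a log2 ratio of 0.12 for HF over Control, which is within the spread between bright probe sets.

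**Figure D2:**
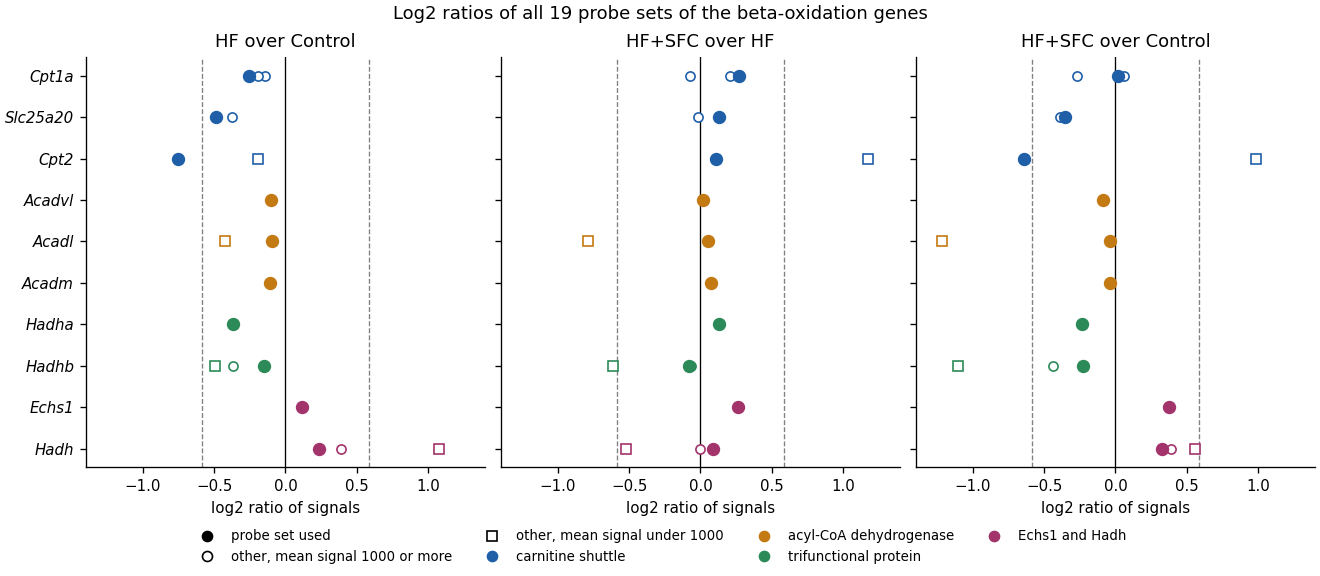
Log2 ratio of signals (x axis) of all 19 probe sets by gene (y axis) in the 3 comparisons, each from 1 array per group; filled points are the probe set used, open circles other probe sets with a mean signal of 1000 or more, open squares dimmer ones, and dashed lines mark 1.5-fold. Among filled points Cpt2 alone passes a dashed line, at -0.75 and -0.64, and the squares scatter widest.

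HF+SFC was compared with HF to describe the pathway when iron was added to the high-fat diet. Cpt1a and Echs1 were about 1.2-fold higher in HF+SFC, and the other members stood closer to HF. None of the 10 was beyond 1.5-fold in either direction, where 2.88% of all kept genes were higher and 5.33% lower by that much, and 0.105% and 0% of the equally bright genes. The median log2 ratio of the members was 0.10, against -0.01 for all kept genes and 0.05 for the equally bright genes. Above 0 were 9 of 10 members and 48.8% of all kept genes, but 70% of the equally bright genes. Bright genes as a group thus lay above 0 on these arrays. Under quantile and lowess scaling, which remove that shift, 6 and 8 of 10 members were above 0. Of the equally bright genes 51.3% and 51.7% were.

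Cpt1a was 1.21-fold higher in HF+SFC than in HF by the probe set used (log2 ratio 0.27) and 1.16-fold by the second, whereas the dimmest, with 1854 in HF+SFC and 1953 in HF, stood at -0.08. Of the equally bright genes 4.0% had a ratio as high as the first. Echs1, with its 1 probe set, was 1.2-fold higher in HF+SFC (0.26), and 4.52% of the equally bright genes reached this. Cpt1a and Echs1 were the highest of the members, and these shares do not allow for taking extremes. The probe sets of Cpt1a ranged over 0.34 in this comparison, where the spread between bright probe sets was 0.11.

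The other members had log2 ratios of HF+SFC over HF between -0.08 and 0.13. Hadha stood at 0.13, Slc25a20 at 0.13 and -0.02 by its probe sets, and Cpt2 at 0.11. Acadm stood at 0.07, Acadl at 0.05 and Acadvl at 0.02, the second negative under quantile scaling and the last under quantile and lowess scaling. Hadhb was the one member below 0, at -0.08 and -0.07 by its bright probe sets, and turned positive when arrays were centred on the median. For Hadh the probe set used gave 0.09 and the other bright one 0.00. Of these, 0.13 is the largest in size, close to the spread between bright probe sets.

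Folds beyond 1.5 appeared among dim probe sets of the same genes. Of the 4 member probe sets with a mean signal under 1000, 1 was at least 1.5-fold above HF in HF+SFC and 2 at least 1.5-fold below it, while 0 of the 15 brighter ones were. Without the filter on dim probe sets, 12.8% of all genes were higher and 16.6% lower by that much. The share over all probe sets of like signal was not computed. The dim probe set of Cpt2 was 2.26-fold higher, where the probe set used was 1.08-fold higher. Those of Hadhb and Acadl were 1.53-fold and 1.73-fold lower, where the probe sets used stood at -0.08 and 0.05 on the log2 scale. In 6 genes with 2 or more probe sets, all probe sets had one sign in 2 genes for HF+SFC over HF and in 6 genes for HF over Control. With the probe sets of 1000 or more, it was 2 of 4 genes and 4 of 4. The share over all genes was not computed for these signs. Of the equally bright genes 62.4% lay below 0 in HF over Control, and 70% above 0 in HF+SFC over HF.

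**Figure D3:**
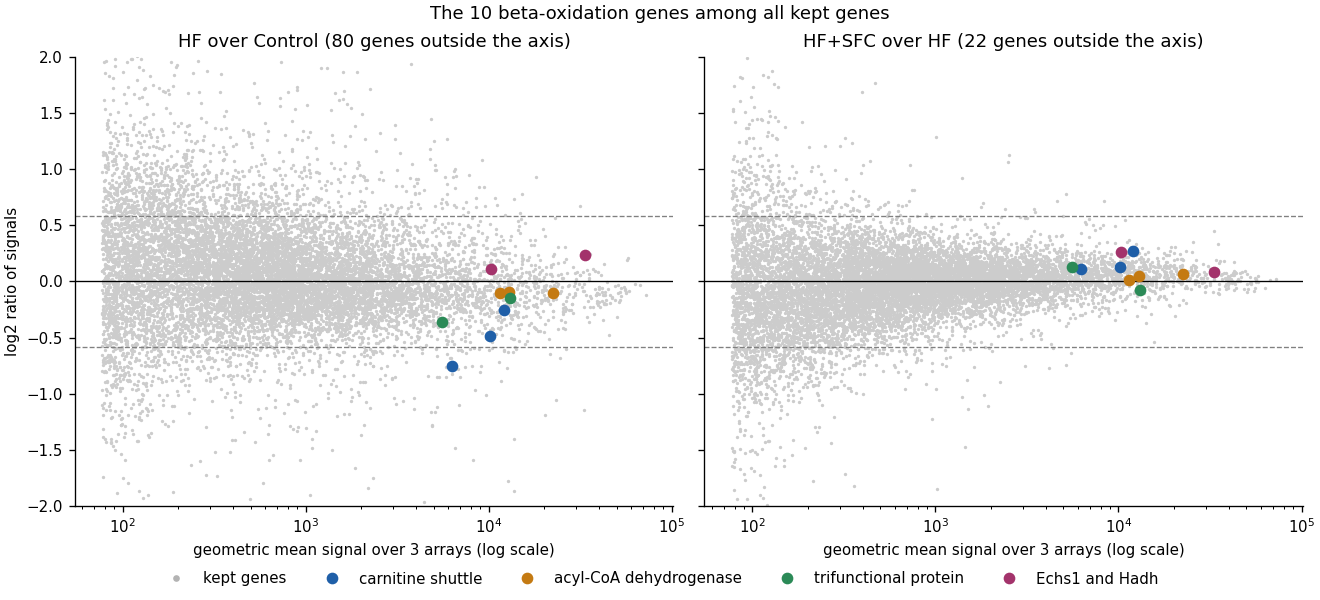
Log2 ratio (y axis) by the mean signal of the 3 arrays (geometric, x axis, log scale) for the kept genes (grey) and the probe sets used of the 10 members (coloured by step), for HF over Control and HF+SFC over HF; dashed lines mark 1.5-fold, and each panel title gives how many genes lie outside the axis. The grey cloud narrows with signal, Cpt2 lies lowest of the members on the left at -0.75, and on the right the members lie between -0.08 and 0.27.

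The comparison of HF+SFC with Control uses the same arrays as those above. By its 3 probe sets Cpt1a stood at 0.02, 0.06 and -0.27, the last by the dimmest. Cpt2 stood at -0.64, but its dim probe set gave 0.99, and Slc25a20 at -0.36 and -0.39. Hadha was at -0.23, the bright probe sets of Hadhb were at -0.23 and -0.44, and the dehydrogenases were between -0.09 and -0.04. Echs1 and Hadh stood above Control at 0.38 and 0.32. In this comparison 1 of 10 members was at least 1.5-fold lower and 0 were higher, where 6.88% and 9.2% of all kept genes were, and the members' median of -0.06 stood beside 0.02 for all kept genes. Side by side, the ratios of HF over Control and of HF+SFC over Control were -0.25 and 0.02 for Cpt1a, -0.75 and -0.64 for Cpt2, -0.49 and -0.36 for Slc25a20, and 0.12 and 0.38 for Echs1.

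The rest of the fatty acid oxidation machinery was read from lists of genes chosen by function. In HF, 4 of 19 other acyl-CoA enzymes were higher than in Control by at least 1.5-fold and 3 were lower. Of all kept genes 11.3% were higher and 5.84% lower. Under quantile and lowess scaling, where 7.40% and 7.03% of all kept genes were lower, 2 of the 19 enzymes were. The median log2 ratio of 0.05 was negative under median centring. The lower ones were Acot2, a mitochondrial acyl-CoA thioesterase, at 1005 in HF and 2848 in Control, Crat, carnitine acetyltransferase, at 817 in HF and 2284 in Control, and Nudt7, a peroxisomal CoA hydrolase, 1.56-fold lower. The higher ones were Hsd17b10, another short-chain hydroxyacyl-CoA dehydrogenase, at 10962 in HF and 6118 in Control, and the dimmer Acad10, Acad12 and Acot9, 1.79-fold, 1.96-fold and 1.81-fold higher. Among 6 genes of electron transfer from the dehydrogenases, the flavoprotein genes Etfa and Etfb and the oxidoreductase gene Etfdh stood at -0.01, -0.27 and -0.24, and Etfbkmt, which methylates ETFB, was 2.06-fold lower in HF. Of 13 genes of fatty acid activation and carnitine supply, the carnitine transporter Slc22a5 stood at -1.84 and Acsm5, a medium-chain acyl-CoA synthetase, was 1.92-fold higher.

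Among 8 genes of malonyl-CoA control, 1 was at least 1.5-fold lower in HF, where 5.84% of all kept genes were. This was Mlycd, malonyl-CoA decarboxylase, which removes the inhibitor of CPT1, with 2000 in HF+SFC, 1780 in HF and 2723 in Control. The acetyl-CoA carboxylase genes Acaca and Acacb, whose products make malonyl-CoA, stood at 0.32 and -0.18 for HF over Control, and the ratios of HF+SFC over HF were -0.49 and -0.26. Acsl3, an acyl-CoA synthetase, had 599 in HF+SFC, 519 in HF and 571 in Control. Of 15 regulators, Foxa2 was 1.86-fold, Hnf4a 1.53-fold and Creb3l3 1.51-fold lower in HF, Lpin1 was 2.12-fold and the dim Ppard 1.59-fold higher, and Ppara itself stood at -0.28. These counts of 3 lower and 2 higher regulators stood against 5.84% and 11.3% of all kept genes. Under quantile and lowess scaling they became 1 lower and 1 higher. Of all kept genes 7.40% were then lower and 9.50% higher under quantile scaling, and 7.03% and 9.63% under lowess. Of the 4 ketogenesis genes kept, the ketone exporter Slc16a1 had 4970 in HF and 13899 in Control, and Acat1 and Bdh1 stood at 0.16 and 0.32. The 4 propionyl-CoA genes, which handle the end of odd chains, ranged from -0.01 to 0.41, with 0 beyond 1.5-fold.

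Of 11 PPARα targets outside mitochondrial oxidation, listed with these results already known, 9 were at least 1.5-fold lower in HF than in Control (median -1.16), while of the 10 β-oxidation members 1 was (median -0.13), and 5.84% of all kept genes were. The 9 ranged from Angptl4, 1.61-fold lower, to Pdk4 with 340 in HF and 3165 in Control, with Plin2, Acot3, Hsdl2, Cyp4a31, Cyp4a14, Fgf21 and Acot1 between them, and 9 were lower under each of the 3 scalings as well. In peroxisomal oxidation 5 of 15 were at least 1.5-fold lower and 0 higher in HF: Ehhadh, the peroxisomal bifunctional enzyme and a counterpart of Hadha, at -1.77, Hacl1 at -0.89, Pex11a at -0.85, Crot at -0.68 and Amacr at -0.60. Under quantile and lowess scaling 3 of the 15 were lower, where 7.40% and 7.03% of all kept genes were. The median of the 15, -0.12, was positive under lowess scaling. In HF+SFC over HF, 0 kept genes of the 9 lists were beyond 1.5-fold in either direction, where 2.88% of all kept genes were higher and 5.33% lower. List medians lay between -0.12 and 0.11. Acad9 at 0.35, Acsm3 at 0.33 and Esrra, a regulator of mitochondrial genes, at 0.33 were the highest. Acaca at -0.49, Acad12 at -0.45 and Pdk4 at -0.42 were the lowest.

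**Figure D4:**
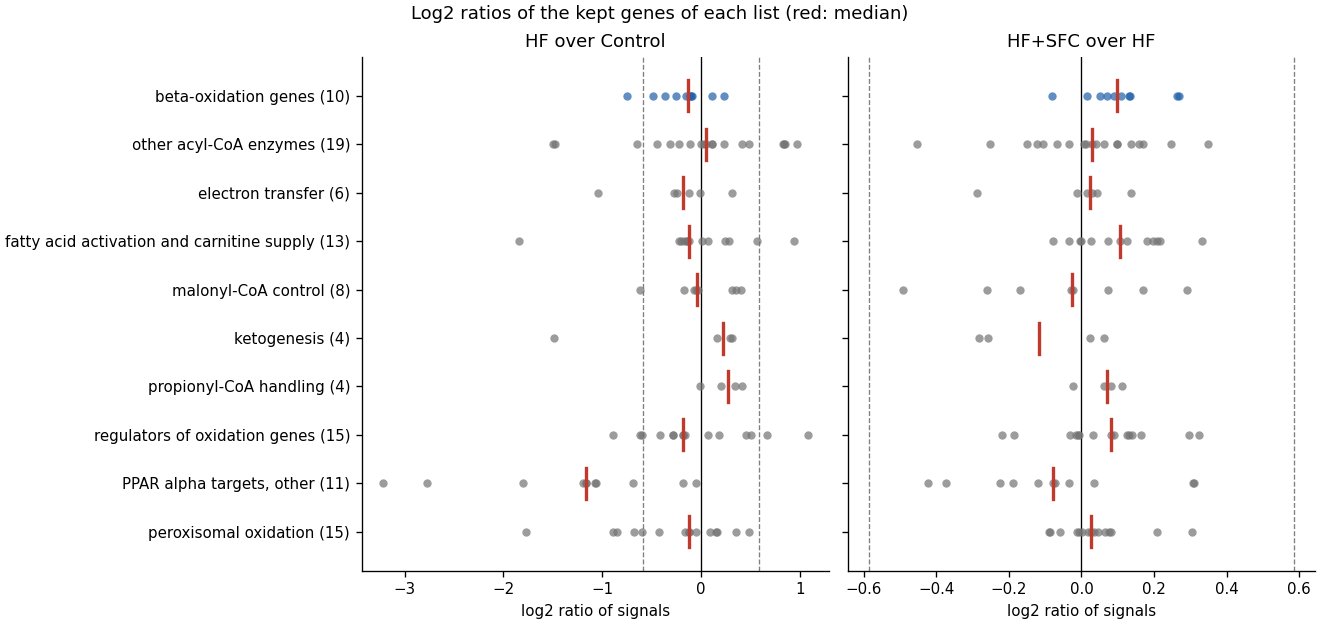
Log2 ratio (x axis, with a different range in each panel) of the kept genes of each list (y axis, number of genes in parentheses) for HF over Control and HF+SFC over HF, with 1 array for each diet; each point is 1 gene, a red bar shows the median and dashed lines stand at 1.5-fold. PPARα targets other than the members have a median of -1.16 on the left against -0.13 for the β-oxidation genes, and on the right no gene passes a dashed line.

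The members are genes of hepatocytes and most other cells, and markers of the cell types in the pools were read beside them. Hepatocyte markers, 9 of 10 of which were read and kept, had a median log2 ratio of -0.09 for HF over Control, with 0.05 for HF+SFC over HF, the first positive under quantile and lowess scaling and the second negative under lowess scaling. Their summed signal was 402457 in HF+SFC, 389439 in HF and 417937 in Control, lowest in HF. By the probe set used, Cpt1a, Slc25a20, Cpt2, Hadha and the dehydrogenases were also lowest in HF. Hadhb was lowest in HF+SFC, and Echs1 and Hadh in Control. The dimmest probe set of Cpt1a and the second of Slc25a20 were lowest in HF+SFC. Macrophage markers (13 of 13 kept) had a summed signal of 22831 in HF+SFC, 31772 in HF and 23103 in Control, with a median of 0.51 for HF over Control, against -0.49 for HF+SFC over HF. Stellate cell markers (10 of 10 kept) had 18804 in HF+SFC, 24499 in HF and 16399 in Control. The defining markers of fat cells (Adipoq, Lep, Retn) and of skeletal muscle (Ckm, Mb, Myh4, Tnnt3) were below the kept level. The fifth muscle marker, Acta1, was dim but kept, with 138 in HF+SFC, 45.0 in HF and 99.4 in Control, lowest in HF. The part of cell composition in the members' ratios was not tested.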

How the data were processed

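Liver RNA of 3 pools, 1 each of HF+SFC, HF and Control mice, was labelled with biotin and hybridised to Affymetrix whole-genome mouse arrays. The deposited values are MAS5 signals, that is, intensities on a linear scale that the authors had scaled to one target per array, which removes differences in total signal between arrays. The MAS5 version is not given in the sources used here. No background values or detection calls were used. The number of arrays limits the precision, and dim probe sets are noisy.

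Gene names came from the annotation table of the platform. Of 45037 probe sets other than 64 controls, 34945 named 1 gene, 932 several and 9160 were not listed, and 34741 of those with 1 gene had an Entrez identifier in RefSeq (GRCm38.p6). From these, log2 ratios of the signals of 2 arrays were computed for every gene (Python 3.11.15, numpy 2.4.6, pandas 2.3.3), and the number of genes at or beyond 1.5-fold was given beside the share of all kept genes. The 10 members and the gene lists were chosen with earlier results of these data known. The members were always named, and of each pathway list the kept genes beyond 1.5-fold in HF over Control or HF+SFC over HF and some of those with the largest ratios, besides Acsl3 and Mlycd. Some listed genes were not analysed here. A comparison of proteins was planned and not made. The steps were tested on simulated data.

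Alternatives tried were median centring, quantile normalization, lowess (fraction 0.3, statsmodels 0.14.6), no filter, the upper 25% of signal, a floor at each array's median, a pseudocount of 16, the median over the kept probe sets of a gene, leaving out suffixed probe sets, and thresholds of 2-fold and 1.25-fold.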

Additional observations from a re-analysis of the deposited data

How the results depend on the processing

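Every value rests on 1 pooled array per group, and no alternative replaces replicates. No paired analysis was possible because each group has 1 array. The median log2 ratio of the 10 members kept its sign under all 9 alternatives to its computation. It lay between -0.22 and -0.01 for HF over Control and between 0.05 and 0.22 for HF+SFC over HF. For HF+SFC over Control it lay between -0.06 and -0.03. Of these, no filter, the upper 25% of signal and the floor could not change the median of the members, because every probe set used was bright. The pseudocount of 16 left that median at -0.13 for HF over Control. For HF over Control it was -0.0098 under quantile normalization, -0.0458 under lowess and -0.22 under median centring, and for HF+SFC over HF it was 0.22 under median centring, which moved the median of all kept genes there from -0.01 to 0.11. The equally bright genes moved with it, to -0.16 and 0.17. Of all kept genes, 4.72% were higher and 3.50% lower by 1.5-fold in HF+SFC than in HF under median centring, and 3.98% and 4.05% under quantile normalization.

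As the median over probe sets, in which the dim one of Cpt2 counts equally, 0 members were beyond 1.5-fold for HF over Control, 0 for HF+SFC over Control, and 1 (Cpt2, higher) was for HF+SFC over HF. The log2 ratio of Cpt2 for HF+SFC over Control was then 0.17 and changed sign. With a 2-fold threshold 0 members passed in HF over Control and 0 in HF+SFC over Control. Of all kept genes 1.69% were lower and 3.45% higher by that much in the first, and 1.83% and 2.81% in the second. With the lower threshold 3 members were lower in HF over Control (Slc25a20, Cpt2 and Hadha), 4 passed in HF+SFC over Control (Slc25a20 and Cpt2 lower, Echs1 and Hadh higher), and 0 in HF+SFC over HF. Of all kept genes 15.9% were lower and 24.2% higher by this lower threshold in HF over Control, and 17.2% and 21.3% in HF+SFC over Control. In HF+SFC over HF it was 14.8% and 9.02%. Of 270 ratios of single members, 9 changed sign and 263 moved by less than 0.20 (0.17 for HF+SFC over HF), the spread between probe sets in the upper 25% of signal, which is wider than that of the brightest. The 270 include the ratios under no filter, the upper 25% and the floor, which could not move.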
